A study of Homo sapiens with 23 samples.

Results

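MDM2, PPM1D, MDM4, USP7, CDKN2AIP, TP73 and HIPK2 regulate p53, act beside it or, for TP73, belong to its family, and their RNA was followed in SUDHL5 cells given CDK-TCIP1. They were taken by symbol and make up 7 of the 58592 genes counted. Each gene was read as the sum of its transcripts and transcript by transcript. The p53 gene is not one of the 7. All 7 were among the 17743 genes that passed the filter on low counts, but HIPK2 had 0 to 11 estimated counts per library and passed through the libraries where it was highest.

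SUDHL5 is a line grown from a human diffuse large B-cell lymphoma, and CDK-TCIP1 is a bivalent small molecule made to bring the kinase CDK9 to the repressor BCL6. At 4 h the groups were CDK-TCIP1 at 30 nM in 3 libraries, Neg1 (compound BAK-04-054) at 30 nM in 2, Neg2 (compound BAK-04-066) at 30 nM in 2, and vehicle (DMSO) in 3. At 2 h they were CDK-TCIP1 at 10 nM in 2 libraries, at 30 nM in 4 and at 100 nM in 3, with Neg1 and Neg2 at 30 nM in 2 each. All 9 groups carried 0.1% DMSO and came from 1 cell line, and there was no vehicle group at 2 h. The labels describe Neg1 and Neg2 by code only, so nothing is said here of their structure. Nothing in the labels ties replicates to separate cultures, so p-values measure the spread between these libraries, which may be technical.

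The 23 libraries held 17396484 to 26373153 estimated counts each. The 6 B cell markers were at 83.6 to 1020 CPM (counts scaled to a fixed library total) and the 4 germinal centre markers at 32.0 to 436 CPM. The T cell gene CD3E was at 0.847 to 2.75 CPM, the other 9 markers of T, myeloid, erythroid, epithelial and fibroblast cells stayed at or under 1.00 CPM, and HBB was at 0 in every library. Replicates of a group differed beyond sampling noise in every pair, by a chi-square of 4.32 to 14.2 per degree of freedom.

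In unstressed cells the ubiquitin ligase MDM2 and its relative MDM4 bind p53 and hold it inactive, and MDM2 marks it for destruction. Active p53 switches on MDM2 and the phosphatase gene PPM1D, whose products shut p53 down again, so that both genes are regulators and targets. In germinal centre B cells BCL6 represses the p53 gene and several p53 targets, which lets these cells divide through the DNA breaks of antibody maturation.

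MDM2 has a constitutive promoter at its first exon and an internal one in its first intron, which is the one known to answer to p53. The 250 bases before each RefSeq start (GRCh38.p14) are shown for both, and for PPM1D, because these are the genes that moved together at 4 h. Capitals mark matches to the p53 consensus with at most 3 mismatches (a 20-base site of 2 half-sites without a spacer, which reads the same on both strands) and the cAMP response element TGACGTCA, which overlaps no other match. A match is a description of letters, not a binding site.
MDM2 upstream start, chr12:68807922-68808171 plus strand: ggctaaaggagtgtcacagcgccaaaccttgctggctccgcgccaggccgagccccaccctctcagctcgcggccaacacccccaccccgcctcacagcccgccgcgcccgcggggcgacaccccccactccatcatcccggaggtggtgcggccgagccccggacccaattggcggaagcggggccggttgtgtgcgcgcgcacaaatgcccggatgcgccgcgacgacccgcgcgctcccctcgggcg
MDM2 internal start, chr12:68808767-68809016 plus strand: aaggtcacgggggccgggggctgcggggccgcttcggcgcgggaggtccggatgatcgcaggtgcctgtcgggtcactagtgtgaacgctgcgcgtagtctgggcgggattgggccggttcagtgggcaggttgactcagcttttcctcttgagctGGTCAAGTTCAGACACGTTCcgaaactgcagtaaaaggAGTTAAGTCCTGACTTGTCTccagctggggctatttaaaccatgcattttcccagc
PPM1D start, chr17:60599943-60600192 plus strand: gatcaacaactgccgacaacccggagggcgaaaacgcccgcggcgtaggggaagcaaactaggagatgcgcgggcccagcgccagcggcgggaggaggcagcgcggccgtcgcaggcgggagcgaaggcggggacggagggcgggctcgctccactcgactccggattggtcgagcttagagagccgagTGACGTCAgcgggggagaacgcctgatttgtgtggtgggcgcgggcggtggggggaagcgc
The window before the internal MDM2 start held 2 matches, one with 2 mismatches at 94 to 75 bases before the start and one with 3 mismatches at 56 to 37 bases, and the window before the upstream start held none of these letters. A match with at most 2 mismatches occurred in 0.561% of 34943 RefSeq promoter windows of this length and one with at most 3 in 4.36%. The PPM1D window held no p53 match and 1 cAMP response element at 61 to 54 bases, which occurred in 1.63% of the windows. Among the other members, a window before an internal TP73 start held 1 p53 match with 2 mismatches, the windows of MDM4, USP7 and CDKN2AIP held neither motif, and HIPK2 had no entry.

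MDM2 (ENSG00000135679, GRCh38 chr12:68808176-68850686, plus strand) had 373.2, 395.3 and 389.6 CPM in the 3 libraries at 30 nM CDK-TCIP1 for 4 h. It had 225.0 and 235.5 CPM with Neg1, 224.8 and 217.8 CPM with Neg2, and 247.2, 258.4 and 245.6 CPM with DMSO. Every library given CDK-TCIP1 for 4 h stood above every control library of that time. The rise over DMSO was 0.62 ± 0.05 on the log2 scale, or 1.54-fold (SE; adjusted p = 8.33e-10, edgeR quasi-likelihood test with Benjamini-Hochberg adjustment over all genes). Against Neg1 it was 0.75 ± 0.06 (adjusted p = 6.72e-10) and against Neg2 0.80 ± 0.06 (adjusted p = 1.73e-10). CPM is a share of the library's RNA, so a gene's rise cannot be told apart from a fall of other RNA. RNA per cell was not measured here.

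PPM1D (ENSG00000170836, chr17:60600183-60666280, plus strand) encodes WIP1, a phosphatase that removes activating phosphates from p53 and its kinases. It had 66.9, 68.4 and 62.1 CPM at 30 nM for 4 h, against 38.9 and 36.6 CPM with Neg1, 35.5 and 35.7 CPM with Neg2, and 39.2, 35.6 and 33.7 CPM with DMSO. As for MDM2, the CDK-TCIP1 libraries did not overlap any control library. The log2 fold change was 0.86 ± 0.08 over DMSO (1.82-fold, adjusted p = 1.70e-09), 0.80 ± 0.09 over Neg1 (adjusted p = 7.89e-08) and 0.89 ± 0.09 over Neg2 (adjusted p = 1.55e-08).

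MDM2 and PPM1D were the 2 of 7 members called at 4 h against DMSO, where 36.8% of all genes tested were called. Against Neg1 and against Neg2, where 31.1% of genes were called in each case, USP7 was called as well. The 3 comparisons share the CDK-TCIP1 libraries. Under 30 alternatives for each comparison, none removed the MDM2 or PPM1D call. With counts scaled by transcript length, the MDM2 value against DMSO was smaller, at 0.39 (adjusted p = 0.00449).

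**Figure D1:**
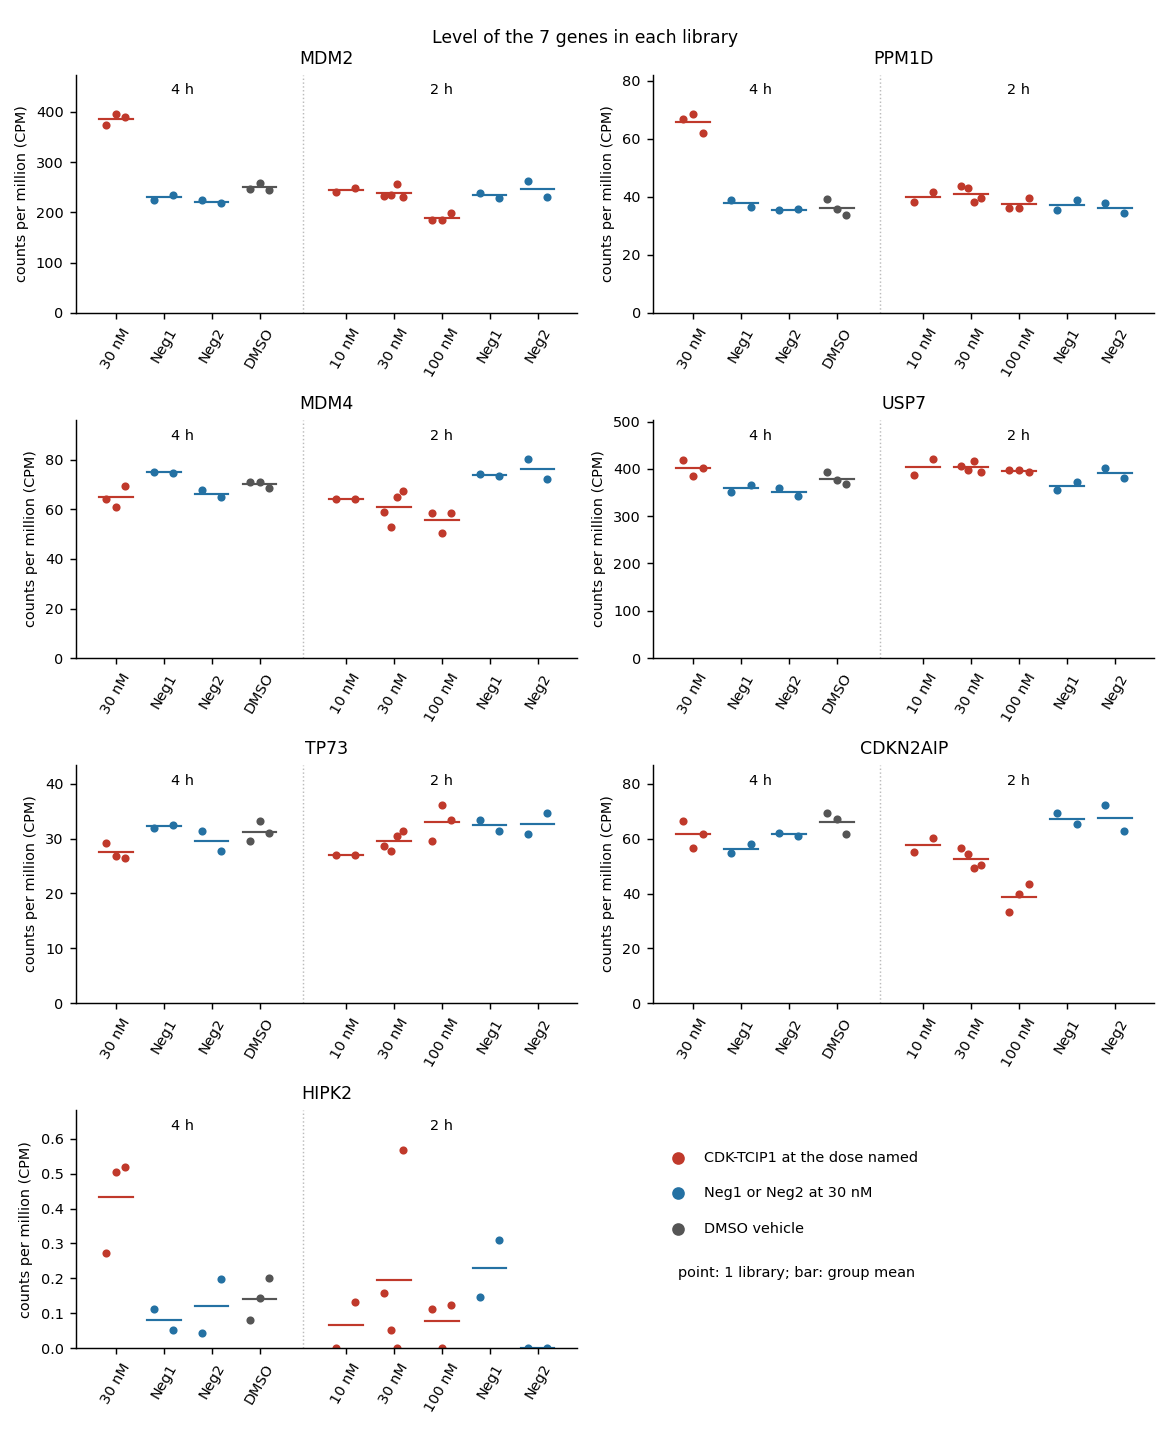
CPM of each of the 7 genes in every library (points) with group means (bars), 4 h groups on the left of each panel and 2 h groups on the right; each vertical axis starts at 0 and has its own scale. MDM2 and PPM1D are highest in the 3 libraries at 30 nM for 4 h (373.2 to 395.3 and 62.1 to 68.4 CPM), while CDKN2AIP is lowest at 100 nM for 2 h (33.2 to 43.3 CPM).

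At 2 h neither gene showed that rise. MDM2 had 240.1 and 247.8 CPM at 10 nM, 233.3, 234.7, 256.7 and 230.9 CPM at 30 nM, and 184.5, 185.9 and 198.2 CPM at 100 nM, against 238.4 and 229.1 CPM with Neg1 and 262.5 and 230.6 CPM with Neg2. The libraries at 10 and 30 nM lay among the controls, and all 3 at 100 nM lay below every one of them. Against the mean of Neg1 and Neg2, MDM2 fell at 100 nM by 0.34 on the log2 scale (SE 0.05, adjusted p = 3.45e-06), and against 30 nM by 0.33 (SE 0.05, adjusted p = 9.42e-05). Both calls were lost when counts were scaled by transcript length (-0.17, adjusted p = 0.167, and -0.28, adjusted p = 0.0793). In TPM (a level per transcript length), MDM2 had 52.9, 51.7 and 43.4 at 100 nM. That was below every library at 30 nM for 2 h (63.8 to 71.1 TPM), with Neg1 (73.6 and 70.4) and with Neg2 (74.4 and 71.9). These TPM values were not tested. PPM1D had 38.3 and 41.5 CPM at 10 nM, 43.6, 43.0, 38.4 and 39.5 CPM at 30 nM, and 36.3, 36.3 and 39.6 CPM at 100 nM, against 35.5 and 39.1 CPM with Neg1 and 38.0 and 34.3 CPM with Neg2. These PPM1D groups overlapped, and no dose passed the test (log2 0.12 ± 0.08, 0.16 ± 0.07 and 0.03 ± 0.07 at 10, 30 and 100 nM, adjusted p = 0.366, 0.0537 and 0.813). The 30 nM value did pass under 7 of 30 alternatives, among them RLE normalization (0.17, adjusted p = 0.0462), length-scaled counts (0.32, adjusted p = 0.00241) and leaving out its replicate 3 (adjusted p = 0.0329), replicate 1 at 100 nM (0.0489) or replicate 1 of Neg2 (0.0431).

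The 30 nM effect, taken over the mean of Neg1 and Neg2, was larger at 4 h than at 2 h for MDM2, by 0.78 ± 0.07 on the log2 scale (adjusted p = 6.75e-08), and for PPM1D, by 0.68 ± 0.10 (adjusted p = 4.85e-05). CDKN2AIP also passed this test of the difference (0.42 ± 0.11, adjusted p = 0.0109), but as a fall at 2 h (-0.36) that did not pass at 4 h. Part of its difference lay in the controls. From 2 h to 4 h, the mean of Neg1 and Neg2 had a log2 difference of -0.19 for CDKN2AIP (SE 0.07), which did not pass (adjusted p = 0.546). The 3 of 7 members called compare with 12.0% of all genes. Within CDK-TCIP1 at 30 nM, 4 h against 2 h, 3 of 7 members were called, against 21.9% of all genes: MDM2 rose by 0.69 ± 0.05 (adjusted p = 2.95e-10), PPM1D by 0.68 ± 0.07 (adjusted p = 1.42e-07) and CDKN2AIP by 0.22 ± 0.08 (adjusted p = 0.0421). The CDKN2AIP call was lost with length-scaled counts (0.18, adjusted p = 0.409) and without any 1 of 14 of the 23 libraries, with adjusted p up to 0.224 without replicate 1 at 30 nM for 4 h. Between the times, the mean of Neg1 and Neg2 changed for 0 of 7 members and 0.0% of genes, with 1394 genes at an unadjusted p under 0.05 (edgeR) and 2 genes called by DESeq2.

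**Figure D2:**
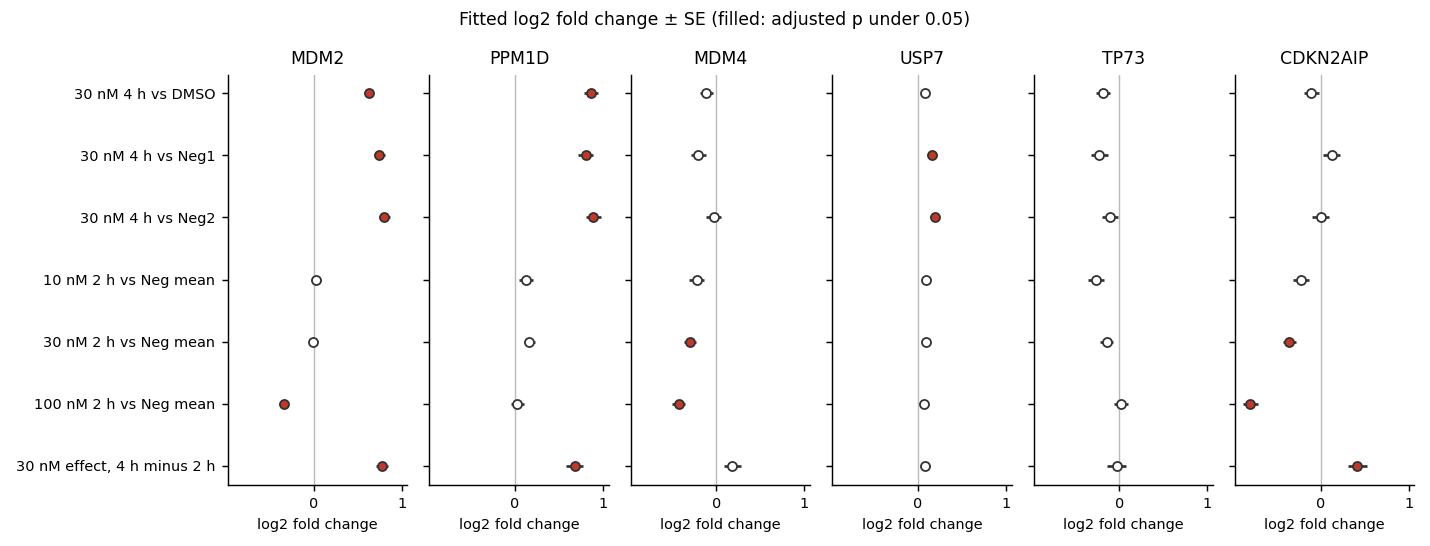
Fitted log2 fold changes (points) with their SE (lines) for 6 members in 7 comparisons, filled where the adjusted p was under 0.05; HIPK2 is left out for its low counts. MDM2 and PPM1D are raised at 4 h by 0.62 to 0.89, and at 2 h CDKN2AIP falls further at 100 nM than at 30 nM; comparisons at one time share libraries.

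Most of the estimated counts of MDM2 fell on MDM2-202, a transcript of the upstream start that ends in a long 3′ exon. It took 79.8 ± 0.97% of them at 30 nM for 4 h (SD, n = 3), and 74.8 ± 2.90% with DMSO (n = 3). A long transcript gathers more counts per molecule, and per length MDM2-202 was 26.9 ± 1.97% of MDM2 TPM at 30 nM for 4 h and 22.4 ± 3.88% with DMSO. The shorter MDM2-225 was 25.7 ± 2.92% and 29.3 ± 2.97% in the same groups. MDM2-202 had 25.2, 27.1 and 26.4 TPM (a level per transcript length) at 30 nM for 4 h, against 16.3 and 16.5 TPM with Neg1, 16.0 and 14.2 TPM with Neg2, and 17.97, 19.3 and 16.6 TPM with DMSO. It rose by 0.69 ± 0.08 on the log2 scale over DMSO (adjusted p = 1.42e-05 over 71167 transcripts, edgeR).

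MDM2-225, which begins at the internal start and ends in a shorter last exon, had 26.0, 25.5 and 23.3 TPM at 30 nM for 4 h, against 18.1 and 22.7 TPM with Neg1, 18.1 and 20.4 TPM with Neg2, and 22.8, 23.8 and 24.0 TPM with DMSO. Its groups overlapped with DMSO and its log2 fold change there, 0.22 ± 0.11, did not pass (adjusted p = 0.282). It passed against the mean of Neg1 and Neg2 (0.43 ± 0.10, adjusted p = 0.0105), but no longer without replicate 1 of Neg1 or of Neg2 at 4 h (adjusted p up to 0.0633). It was lower at 100 nM for 2 h, with 7.57, 10.1 and 11.8 TPM against 20.6 and 21.2 TPM with Neg1 and 24.9 and 25.3 TPM with Neg2 (log2 -0.82 ± 0.10, adjusted p = 2.86e-05).

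Summed over transcripts, the internal start gave 36.8 ± 4.05% of MDM2 TPM at 30 nM for 4 h (SD, n = 3), 34.6 ± 5.99% with Neg1 (n = 2), 33.2 ± 1.32% with Neg2 (n = 2) and 32.3 ± 3.40% with DMSO (n = 3). These shares of TPM overlapped. As a share of estimated counts the internal start took 17.6, 15.9 and 15.6% at 30 nM for 4 h, against 16.6 and 20.3% with Neg1, 16.9 and 19.4% with Neg2, and 17.8, 18.2 and 20.7% with DMSO. By counts the CDK-TCIP1 libraries thus lay below DMSO and overlapped with Neg1 and Neg2, so the direction against DMSO differed between the measures. The internal start gave 35.8 ± 1.83 TPM at 30 nM for 4 h and 26.0 ± 2.83 TPM with DMSO, and the upstream start 40.6 ± 4.28 TPM and 33.8 ± 2.30 TPM. Neither start's level in TPM overlapped with DMSO, and these sums were not tested. MDM2-202, MDM2-225 and MDM2-212 passed in none of the 4 tests of usage, which set a transcript against the others of its gene. MDM2-212, another transcript of the internal start, had 3.98 to 4.75 TPM at 30 nM for 2 h, against 1.62 and 1.66 TPM with Neg1 and 0.744 and 1.84 TPM with Neg2 (log2 1.86 ± 0.50, adjusted p = 0.0298). That call was lost under 7 of 26 alternatives, and the transcript's length in the deposited tables differs from the reference annotation.

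At 4 h against DMSO 3 member transcripts passed, MDM2-202 and 2 of PPM1D, where 7.11% of all transcripts passed. The deposited tables held 34 transcripts of MDM2, 17 of MDM4, 4 of PPM1D, 21 of USP7, 14 of TP73, 5 of CDKN2AIP and 3 of HIPK2. How many of these were tested is not given here. This count, and the later counts of member transcripts by level or usage, are therefore not shown to exceed the shares of all transcripts. PPM1D-202 had 8.29, 11.4 and 10.9 TPM at 30 nM for 4 h, against 4.62 and 2.62 TPM with Neg1, 4.19 and 4.43 TPM with Neg2, and 5.31, 4.88 and 3.43 TPM with DMSO. The CDK-TCIP1 libraries stood above all controls, and the log2 fold change over DMSO was 1.31 ± 0.21 (adjusted p = 5.13e-04). PPM1D-204 rose by 0.91 ± 0.24 (adjusted p = 0.0282), but its call was lost under 6 of 26 alternatives, among them leaving out replicate 1 or 3 of DMSO or replicate 1 or 2 at 30 nM for 4 h (adjusted p up to 0.145). PPM1D-201, the transcript with the full reading frame, did not pass (0.48 ± 0.16, adjusted p = 0.0925).

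PPM1D-202 and PPM1D-204 share the start of an exon that PPM1D-201 lacks. In PPM1D-202, which the annotation classes as a target of nonsense-mediated decay, it is exon 6 of 7, 111 bases long. It is shown in capitals with 10 bases of the neighbouring exons, from the GENCODE 29 transcript.
PPM1D-202 exon 6, chr17:60656932-60657042 plus strand: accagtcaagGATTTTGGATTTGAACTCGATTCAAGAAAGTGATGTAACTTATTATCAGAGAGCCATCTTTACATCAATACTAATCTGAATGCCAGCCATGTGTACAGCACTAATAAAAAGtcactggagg
Its reading frame has 1290 coding bases, against 1815 in PPM1D-201. PPM1D-202 took 40.1 ± 7.29% of the gene's counts at 30 nM for 4 h and 28.7 ± 4.19% with DMSO (SD, n = 3 each), and PPM1D-201 took 42.3 ± 3.54% and 54.2 ± 4.85%. The usage of neither transcript passed the test (adjusted p = 1.00 for both, edgeR), so these data show a higher PPM1D level without a resolved shift between its transcripts.

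**Figure D3:**
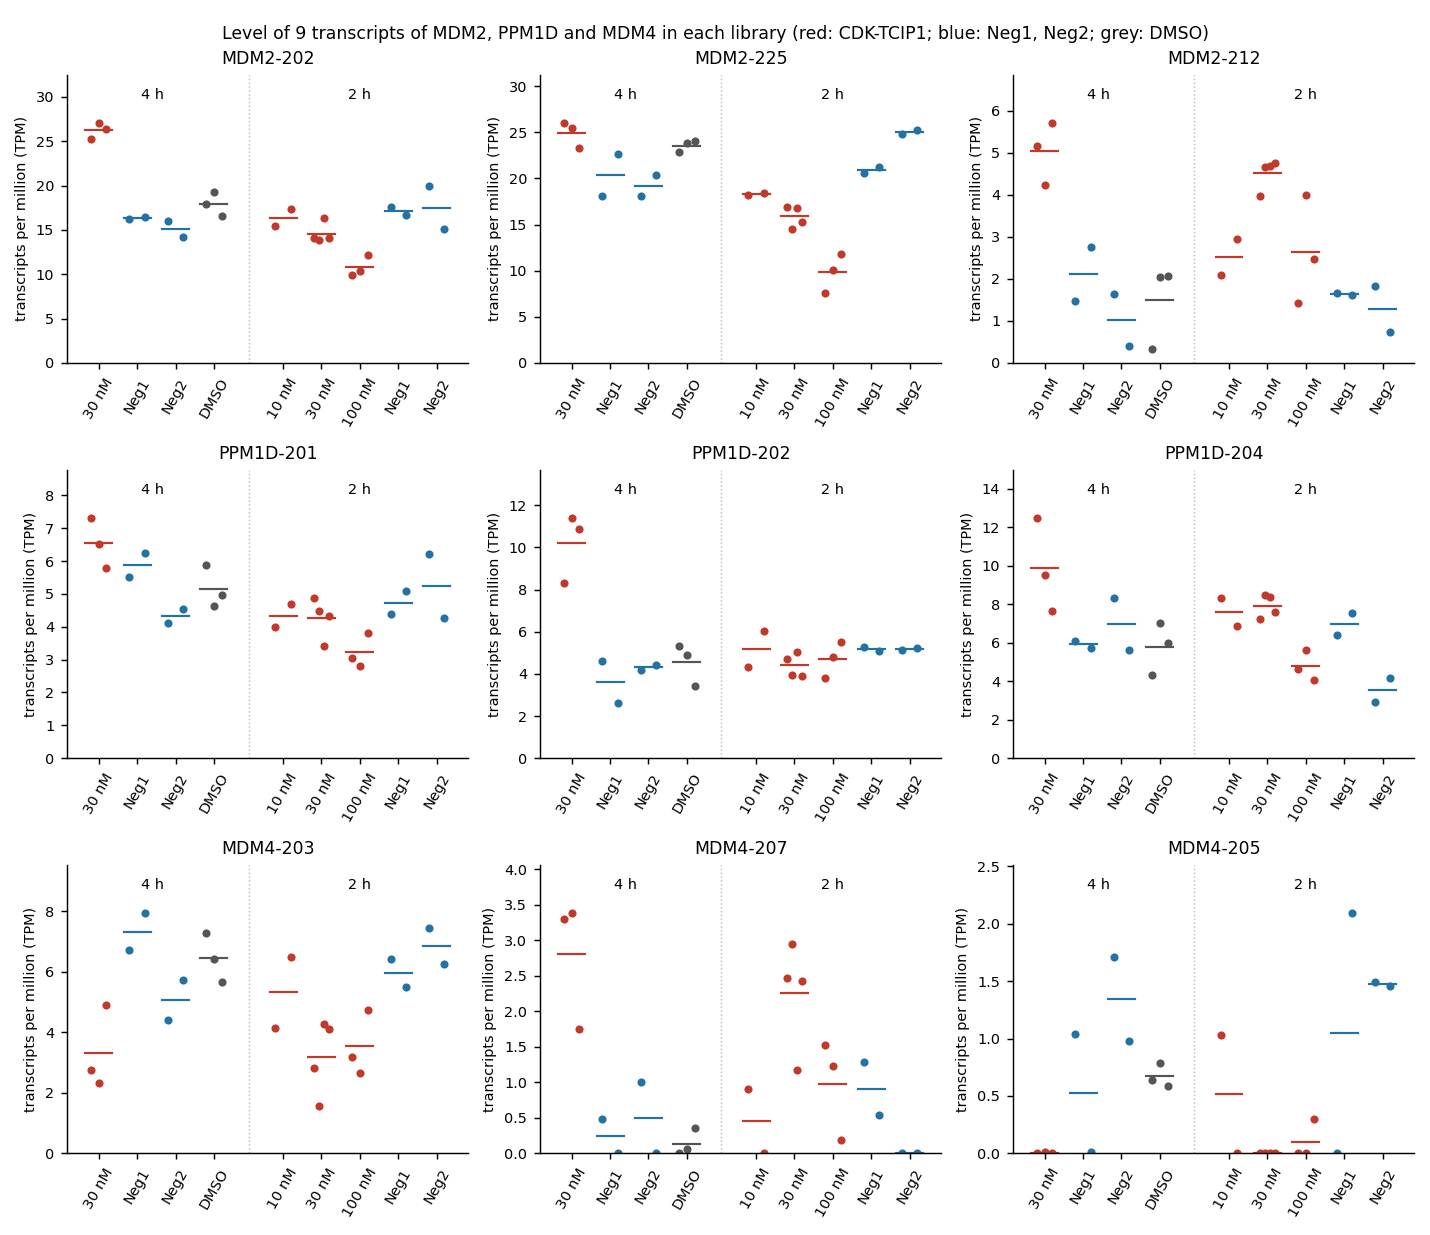
TPM of 3 transcripts each of MDM2, PPM1D and MDM4 in every library (points) with group means (bars), 4 h on the left and 2 h on the right; axes start at 0. MDM2-202 and PPM1D-202 are highest at 30 nM for 4 h, and MDM4-205 is at 0.0140 TPM or less in the 7 libraries given 30 nM CDK-TCIP1.

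MDM4 (ENSG00000198625, chr1:204516379-204558120, plus strand) covers the activation domain of p53 and also pairs with MDM2. At 2 h it had 64.4 and 64.1 CPM at 10 nM, 58.9, 53.04, 65.0 and 67.3 CPM at 30 nM, and 58.7, 50.3 and 58.7 CPM at 100 nM. With Neg1 it had 74.4 and 73.5 CPM and with Neg2 80.2 and 72.4 CPM, all above every CDK-TCIP1 library of 2 h. Against the mean of Neg1 and Neg2 it fell by 0.30 at 30 nM (SE 0.07, adjusted p = 7.85e-04) and by 0.43 at 100 nM (SE 0.07, adjusted p = 2.70e-05), while at 10 nM the log2 fold change was -0.23 ± 0.08 (adjusted p = 0.0676). At 4 h it had 64.3, 61.2 and 69.5 CPM at 30 nM, against 75.2 and 74.9 CPM with Neg1, 67.7 and 64.9 CPM with Neg2, and 71.0, 70.9 and 68.8 CPM with DMSO, and no comparison passed. Against Neg1 (-0.21, adjusted p = 0.0662) it did pass as lower under 7 of 30 alternatives. Among them were no filter on low counts (-0.23, adjusted p = 0.0459), a fit of only the groups compared (-0.20, adjusted p = 0.0357), and leaving out replicate 3 at 30 nM for 4 h (adjusted p = 0.0385), replicate 2 at 30 nM for 2 h (0.0412) or replicate 2 of Neg2 at 2 h (0.0457). The 10 nM value passed under 3 of 30, with adjusted p of 0.0424 without replicate 2 at 30 nM for 2 h and 0.0477 without replicate 2 of Neg2 at 2 h.

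The direction of MDM4 differed between estimated counts and counts scaled by transcript length, and the cause was not tested. With counts scaled by length, its log2 fold change was 0.16 (adjusted p = 0.413) at 30 nM and 0.07 (adjusted p = 0.774) at 100 nM for 2 h, and 0.17 (adjusted p = 0.615) at 10 nM. At 4 h the same scaling gave 0.51 against Neg1 (adjusted p = 0.0425), 0.62 against Neg2 (adjusted p = 0.0143) and 0.37 against DMSO (adjusted p = 0.0837), where the unscaled value was -0.11 (adjusted p = 0.266). In TPM, MDM4 averaged 20.4 ± 0.48 at 30 nM for 4 h, 15.4 ± 0.33 with Neg1, 13.9 ± 0.057 with Neg2 and 17.2 ± 0.57 with DMSO (SD, n = 3, 2, 2 and 3).

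At 30 nM the shares of 2 MDM4 transcripts changed in opposite directions. MDM4-203 carries all 11 exons of the full-length form, MDM4-205 lacks exon 6, and MDM4-207 lacks exon 9. The shorter MDM4-211 and MDM4-213 also lack exon 6, and the shorter MDM4-206 and MDM4-213 also lack exon 9. The shares of MDM4-205 and MDM4-207 therefore do not measure all skipping of either exon. Skipping of exon 6 is the event known from the short form MDM4-S, which is unstable and makes little MDM4 protein. The 2 exons are shown in capitals with 10 bases of the neighbouring exons, from the GENCODE 29 transcripts.
MDM4 exon 6, absent from MDM4-205, chr1:204537430-204537497 plus strand: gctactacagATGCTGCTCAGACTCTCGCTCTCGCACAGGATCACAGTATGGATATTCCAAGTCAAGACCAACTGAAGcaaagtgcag
MDM4 exon 9, absent from MDM4-207, chr1:204544535-204544684 plus strand: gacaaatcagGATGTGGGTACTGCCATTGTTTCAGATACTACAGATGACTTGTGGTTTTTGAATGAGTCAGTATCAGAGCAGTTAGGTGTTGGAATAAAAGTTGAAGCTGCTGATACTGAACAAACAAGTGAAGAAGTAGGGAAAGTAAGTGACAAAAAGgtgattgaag
Exon 6 has 68 bases, which breaks the reading frame when skipped, and exon 9 has 150 bases, which keeps it. The annotated reading frame has 1470 coding bases in MDM4-203, 1320 in MDM4-207 and 420 in MDM4-205.

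**Figure D4:**
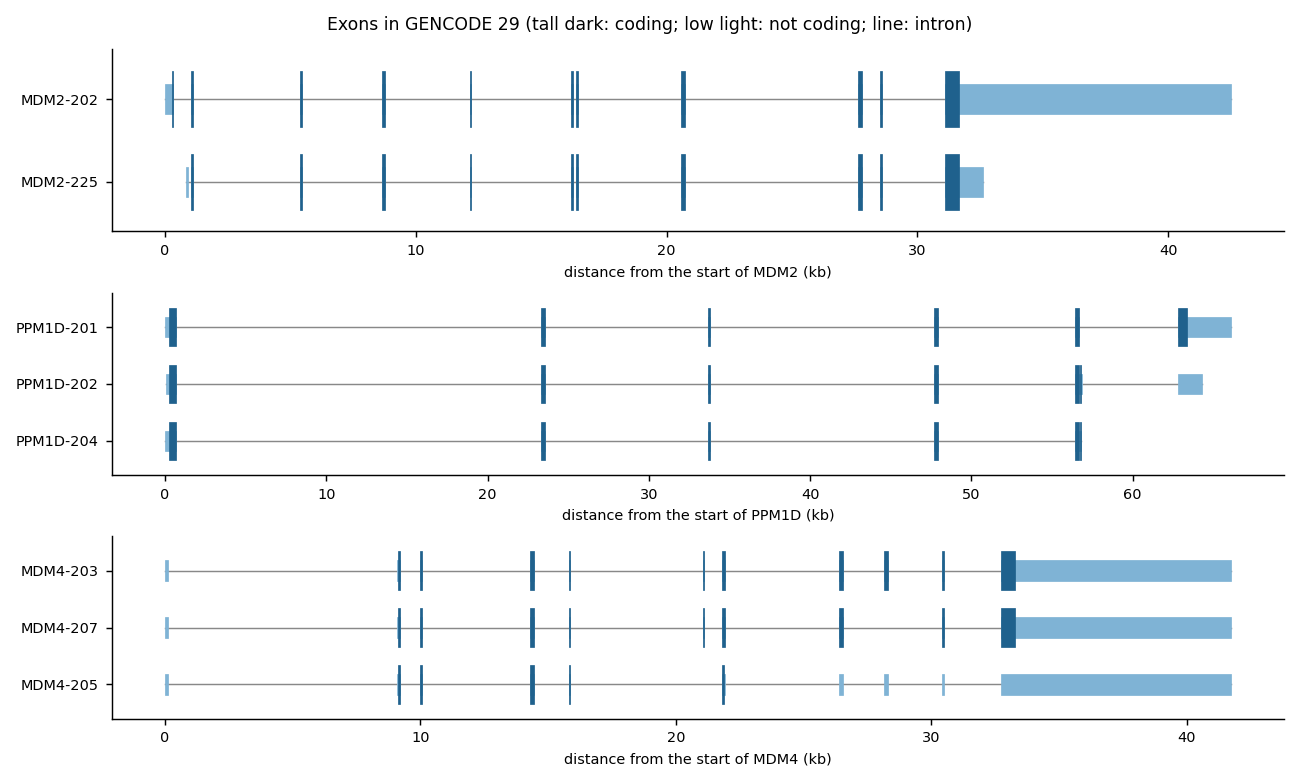
Exons of 8 transcripts of MDM2, PPM1D and MDM4 as boxes along the distance from the gene's start (kb), after GENCODE 29, with coding parts tall and dark. MDM2-225 starts later and ends earlier than MDM2-202, and MDM4-205 and MDM4-207 each lack 1 internal exon of MDM4-203; MDM2-202, PPM1D-201 and MDM4-203 have slightly different lengths in the deposited tables.

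MDM4-205 had 0.0140 TPM or less in the 3 libraries at 30 nM for 4 h, against 1.04 and 0.0163 TPM with Neg1, 1.71 and 0.980 TPM with Neg2, and 0.638, 0.789 and 0.584 TPM with DMSO. At 2 h its 4 libraries at 30 nM were also near 0, against 1.64e-06 and 2.09 TPM with Neg1 and 1.495 and 1.46 TPM with Neg2. At 10 nM it had 1.04 and 4.36e-08 TPM, and at 100 nM 7.11e-05, 1.94e-04 and 0.300 TPM. Its level passed at 30 nM for 2 h (adjusted p = 0.0420), a call lost under 17 of 26 alternatives, and did not pass at 100 nM (adjusted p = 0.357) or at 4 h against DMSO (0.175) or the mean of Neg1 and Neg2 (0.138). The share of MDM4-205 within the gene fell at 30 nM for 2 h (adjusted p = 3.07e-04, edgeR's test of transcript usage) and for 4 h (adjusted p = 0.0320 against DMSO and 0.0150 against the mean of Neg1 and Neg2), and did not pass at 100 nM (adjusted p = 0.349). The 2 h call was lost without replicate 2 of Neg1 (adjusted p = 1.00), and the call against DMSO without replicate 1 or 2 of DMSO or any CDK-TCIP1 library of 4 h (adjusted p up to 0.175). The call against Neg1 and Neg2 was lost without replicate 1 or 3 at 30 nM or replicate 1 of Neg1 (adjusted p up to 0.392).

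MDM4-207 had 3.31, 3.39 and 1.75 TPM at 30 nM for 4 h, against 0.478 and 0 TPM with Neg1, 1.01 and 0 TPM with Neg2, and 0, 0.0630 and 0.352 TPM with DMSO. After 2 h it had 2.47, 2.96, 1.177 and 2.43 TPM at 30 nM and 1.52, 1.23 and 0.191 TPM at 100 nM, against 1.29 and 0.535 TPM with Neg1 and 0.00263 and 0 TPM with Neg2. The groups did not overlap at 4 h and did at 2 h. Its level passed in none of the 4 comparisons (adjusted p = 0.177 at 4 h against DMSO, 0.264 against the mean of Neg1 and Neg2, 0.0761 at 30 nM for 2 h and 0.123 at 100 nM). Its share of the gene rose at 30 nM for 2 h (adjusted p = 1.06e-04), at 100 nM (adjusted p = 0.00148), and at 4 h against DMSO (adjusted p = 0.00728) and against the mean of Neg1 and Neg2 (adjusted p = 0.0304). No alternative removed either 2 h call, while the call against DMSO was lost without replicate 1 or 2 of DMSO (adjusted p up to 0.103). The 4 h call against Neg1 and Neg2 was lost without replicate 1 or 2 at 30 nM or replicate 2 of Neg1 or Neg2 (adjusted p up to 0.298).

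MDM4-203 took 46.8 ± 16.4% of MDM4 counts at 30 nM for 4 h, 82.7 ± 10.2% with Neg1, 67.2 ± 15.4% with Neg2 and 75.9 ± 8.03% with DMSO (SD, n = 3, 2, 2 and 3). Its own level and usage passed in none of the 4 comparisons of transcripts. Usage changed for 3 member transcripts at 4 h against DMSO and for 3 against the mean of Neg1 and Neg2, for 4 at 30 nM for 2 h and for 2 at 100 nM, where 0.89%, 1.19%, 1.11% and 1.51% of all transcripts passed. Beside MDM4-205 and MDM4-207 these were MDM2-211, TP73-202 and TP73-205, each with an adjusted p of 0.0375 or more and each lost under 7 or more of 26 alternatives. The 3 long MDM4 transcripts share most of their sequence, so the split of reads among them is an estimate, and its uncertainty is not in the tests.

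CDKN2AIP (ENSG00000168564, chr4:183444591-183448198, plus strand) encodes CARF, a nuclear protein that binds ARF, p53 and MDM2. At 2 h it had 55.3 and 60.2 CPM at 10 nM, 56.5, 54.5, 49.3 and 50.3 CPM at 30 nM, and 33.2, 40.0 and 43.3 CPM at 100 nM, against 69.3 and 65.2 CPM with Neg1 and 72.5 and 62.9 CPM with Neg2. Every CDK-TCIP1 library of 2 h lay below every Neg1 and Neg2 library, and the 100 nM libraries below all of the lower doses. Against the mean of Neg1 and Neg2 the log2 fold change was -0.22 ± 0.09 at 10 nM (adjusted p = 0.107), -0.36 ± 0.07 at 30 nM (adjusted p = 3.74e-04) and -0.80 ± 0.08 at 100 nM (adjusted p = 1.63e-08). From 30 to 100 nM it fell by 0.44 (SE 0.08, adjusted p = 7.81e-04), a call that length-scaled counts did not keep (-0.40, adjusted p = 0.0656). At 4 h it had 66.3, 56.6 and 61.7 CPM at 30 nM, against 54.8 and 58.0 CPM with Neg1, 62.1 and 61.1 CPM with Neg2, and 69.3, 67.3 and 61.9 CPM with DMSO. These groups overlapped and none of the 3 comparisons passed, and its effect at 30 nM was smaller at 4 h than at 2 h (difference 0.42 ± 0.11, adjusted p = 0.0109, and 0.176 with length-scaled counts).

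Both main CDKN2AIP transcripts took part at 100 nM. CDKN2AIP-201 had 8.44, 9.95 and 12.2 TPM, against 24.4 and 23.2 TPM with Neg1 and 24.9 and 18.6 TPM with Neg2 (log2 -0.75 ± 0.11, adjusted p = 1.37e-04). CDKN2AIP-203 had 2.22, 3.53 and 3.12 TPM, against 6.69 and 6.16 TPM with Neg1 and 7.14 and 7.93 TPM with Neg2 (log2 -0.84 ± 0.14, adjusted p = 6.84e-04). Each stood below all controls. Of all transcripts 11.5% passed at 100 nM, and 6 of the members' did, with MDM2-202, MDM2-225, USP7-202 and MDM4-206 beside these. At 30 nM for 2 h 4 member transcripts passed, where 7.26% of all did: CDKN2AIP-201, MDM2-212, PPM1D-204 and MDM4-205.

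Counted by gene, 0 of 7 members passed at 10 nM for 2 h against the mean of Neg1 and Neg2, 2 at 30 nM and 3 at 100 nM. Of all genes 13.5%, 37.1% and 44.9% passed, and the members' counts are to be read against these shares. Between 30 and 10 nM 0 of 7 passed, where 2.62% of genes did, and between 100 and 30 nM 2 of 7 did, where 12.9% of genes did. Taken against Neg1 alone at 2 h, 30 nM gave 3 called members (27.8% of genes), and against Neg2 alone 2 (30.5%). These last counts rested on single libraries, since 0 members were called without replicate 1 of Neg1 and 0 without replicate 1 of Neg2.

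USP7 (ENSG00000187555, chr16:8892094-8964514, minus strand) removes ubiquitin from MDM2 and from p53. It was the most abundant member per length, at 131 ± 7.16 TPM at 30 nM for 4 h and 124 ± 6.84 TPM with DMSO (SD, n = 3 each). It had 418.2, 384.5 and 402.1 CPM at 30 nM for 4 h, against 350.7 and 366.7 CPM with Neg1, 359.7 and 343.5 CPM with Neg2, and 393.1, 377.5 and 367.2 CPM with DMSO. The libraries overlapped with DMSO but not with Neg1 or Neg2. It passed against Neg1 (log2 0.16 ± 0.05, adjusted p = 0.0194) and Neg2 (0.19 ± 0.05, adjusted p = 0.00622), and not against DMSO (0.08 ± 0.05, adjusted p = 0.178). With length-scaled counts it did pass as higher against DMSO (adjusted p = 0.0198, edgeR). The call against Neg1 was lost without replicate 1 at 30 nM for 4 h or without any 1 of the Neg1 libraries or the Neg2 libraries of 4 h (adjusted p up to 0.219), and the call against Neg2 without its replicate 2 (adjusted p = 0.183). The 2 h test passed against Neg1 (0.15 ± 0.05, adjusted p = 0.0260), but not without replicate 3 at 30 nM or either Neg1 library (adjusted p up to 0.337). All 3 of these USP7 calls were also lost with no filter on low counts. Against the mean of Neg1 and Neg2 at 2 h, USP7 did not pass at 30 or 100 nM (adjusted p = 0.0612 and 0.196, edgeR). Length-scaled counts called it at both doses, and DESeq2 at 30 nM.

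A short retained-intron transcript of USP7, USP7-213, had 6.32, 6.56 and 7.76 TPM at 30 nM for 4 h, against 1.36 and 1.35 TPM with Neg1, 0.913 and 2.14 TPM with Neg2, and 3.49, 0.633 and 1.02 TPM with DMSO. It stood above all controls on 37.1 to 46.0 estimated counts per library. It passed against the mean of Neg1 and Neg2 (log2 2.37 ± 0.64, adjusted p = 0.0266) and not against DMSO (2.07 ± 0.69, adjusted p = 0.0891), and the call against Neg1 and Neg2 was lost without any 1 of the 7 libraries compared (adjusted p up to 0.137). In the comparison with Neg1 and Neg2 at 4 h, 5 member transcripts passed, where 7.83% of all did.

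TP73 (ENSG00000078900, chr1:3652520-3736201, plus strand) encodes p73, a relative of p53 that binds similar sites. It had 29.2, 26.9 and 26.5 CPM at 30 nM for 4 h, against 31.9 and 32.5 CPM with Neg1, 31.4 and 27.7 CPM with Neg2, and 29.6, 33.3 and 31.0 CPM with DMSO. The CDK-TCIP1 libraries overlapped with Neg2 alone, and the log2 fold change over DMSO, -0.18 ± 0.08, did not pass (adjusted p = 0.0940). At 2 h it had 27.0 and 27.1 CPM at 10 nM, 28.7, 27.7, 30.5 and 31.4 CPM at 30 nM, and 29.6, 36.2 and 33.4 CPM at 100 nM, against 33.4 and 31.4 CPM with Neg1 and 30.7 and 34.6 CPM with Neg2. Its value nearest to the threshold was at 10 nM (-0.27 ± 0.09, adjusted p = 0.0511), where its 2 libraries lay below every control, and it passed under 6 of 30 alternatives (adjusted p from 0.0234). TP73-208, of the upstream start, took 70.7% or more of its counts in every library. WRAP73 overlaps TP73 on the other strand at a mean of 32.8 CPM, and since no strand setting is given, reads of the overlap cannot be told apart.

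HIPK2 (ENSG00000064393, chr7:139561570-139777778, minus strand), a kinase that phosphorylates p53, was close to absent. It had 6 to 11 estimated counts per library at 30 nM for 4 h and 2 to 4 with DMSO, and 0 in both Neg2 libraries of 2 h, where a count of 0 allows up to 3. At 2 h it had 0 to 11 counts at 30 nM, and 3 and 6 with Neg1, so other groups reached the 4 h range. It passed in no comparison, and no fold is given at this depth. Of its relatives, HIPK1 stood at 174 ± 2.85 CPM at 30 nM for 4 h and 124 ± 3.96 CPM with DMSO (SD, n = 3 each).

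With DMSO the order of levels per length was USP7 at 124 ± 6.84 TPM, MDM2 at 80.8 ± 7.83, CDKN2AIP at 32.95 ± 3.18, MDM4 at 17.2 ± 0.57, PPM1D at 15.5 ± 1.06, TP73 at 8.82 ± 0.97 and HIPK2 at 0.0125 ± 0.0054 TPM (SD, n = 3). No neighbours in this order overlapped across the 3 libraries. At 30 nM for 4 h PPM1D, at 26.6 ± 2.01 TPM, stood above MDM4, at 20.4 ± 0.48 TPM, and level with CDKN2AIP, at 26.6 ± 2.48 TPM.

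Neg1 and Neg2 were compared with DMSO at 4 h and with each other at both times, and 0 of 7 members were called. Over all genes the share called was 0.0% in these comparisons, with 770 genes at an unadjusted p under 0.05 for Neg1 against DMSO, 1063 for Neg2 against DMSO, 464 for Neg1 against Neg2 at 4 h and 1126 at 2 h (edgeR), and 0 or 1 gene by DESeq2. For MDM2 the difference from DMSO was -0.12 on the log2 scale with Neg1 (95% interval -0.25 to 0.01) and -0.18 with Neg2 (95% interval -0.30 to -0.05). For PPM1D it was 0.06 (95% interval -0.13 to 0.24) and -0.03 (95% interval -0.21 to 0.16). These intervals leave out changes of the size CDK-TCIP1 gave at the same dose and time.

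Most of the listed genes that p53 is known to activate also rose at 4 h. Of 25 such genes, not counting members, 22 were tested, and GDF15, PHLDA3 and SPATA18 were not. At 30 nM for 4 h against DMSO 16 rose, 2 fell and 4 did not pass, where 17.5% of all genes rose and 19.3% fell. Their median log2 fold change was 0.65, against 0.03 for all genes tested. The list was written with earlier results of these data known, so these counts describe it and are not an independent test. ZMAT3, which encodes an RNA-binding protein, had 204 ± 1.73 CPM at 30 nM for 4 h and 77.7 ± 5.997 CPM with DMSO (log2 1.39 ± 0.06, adjusted p = 1.62e-15). TNFRSF10B, which encodes a death receptor, had 181 ± 16.8 CPM and 69.6 ± 3.38 CPM in the same groups (1.38 ± 0.07, adjusted p = 2.35e-13). The 2 that fell were BTG2, an antiproliferative gene, with 164 ± 12.3 CPM at 30 nM and 215 ± 5.59 CPM with DMSO (-0.39 ± 0.08, adjusted p = 2.84e-04), and RRM2B, a ribonucleotide reductase subunit, with 155 ± 3.02 CPM and 174 ± 1.74 CPM (-0.17 ± 0.05, adjusted p = 0.0131). BTG2 also fell against Neg1 and Neg2, while RRM2B did not pass there (-0.09, adjusted p = 0.289, and -0.15, adjusted p = 0.0543).

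At 30 nM for 2 h against the mean of Neg1 and Neg2, 9 of the 22 rose and 6 fell, where 19.1% of all genes rose and 18.0% fell, and their median was 0.12. At 100 nM 9 rose and 8 fell, where 22.0% and 22.9% of all genes did, with a median of 0.08. In the test of the difference between 4 h and 2 h, 17 of the 22 were higher at 4 h and 0 lower, where 5.61% of all genes were higher and 6.37% lower, with a median of 0.49. BTG2 had log2 fold changes of -0.89 at 30 nM (adjusted p = 2.72e-10) and -1.13 at 100 nM (adjusted p = 1.21e-11) for 2 h.

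**Figure D5:**
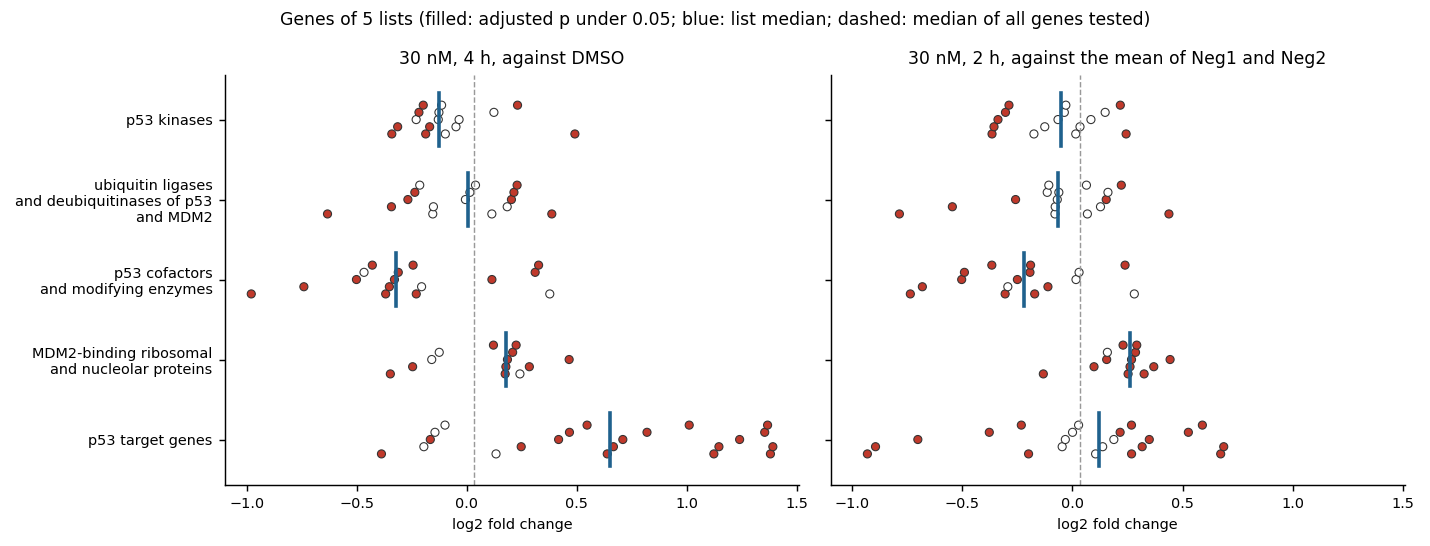
Log2 fold change of each tested gene of 5 lists (points, filled where the adjusted p was under 0.05), with list medians (blue bars) and the median of all genes (dashed line). The p53 target genes centre on 0.65 at 30 nM for 4 h against DMSO. They centre on 0.12 at 30 nM for 2 h against the mean of Neg1 and Neg2, so the references differ. All 5 lists were written with earlier results of these data known.

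Of 16 kinases that act on p53 or its partners, 2 rose and 6 fell at 30 nM for 4 h against DMSO (median -0.13), where 17.5% of all genes rose and 19.3% fell (median 0.03). Against Neg1 2 rose and 3 fell, where 14.2% and 16.9% of all genes did, and against Neg2 2 rose and 6 fell, where 14.4% and 16.8% did. HIPK1 rose (0.49 ± 0.05, adjusted p = 3.69e-08), as did DYRK2, a kinase of p53 in apoptosis (0.23 ± 0.09, adjusted p = 0.0383). CHEK1, a DNA damage checkpoint kinase, fell by 0.34 (SE 0.08, adjusted p = 0.00235), and VRK1 by 0.31 (SE 0.06, adjusted p = 1.43e-04). CHEK1 did not pass against Neg1 (-0.24, adjusted p = 0.0565). At 2 h, against the mean of Neg1 and Neg2, DYRK2 was lower at 100 nM (-0.53, adjusted p = 1.045e-05, edgeR). Its value at 30 nM for 2 h did not pass (-0.07, adjusted p = 0.543).

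Of 16 ubiquitin ligases and deubiquitinases of p53 and MDM2, 4 rose and 4 fell in that comparison with DMSO (median 0.00), where 17.5% of all genes rose and 19.3% fell. The list's shares were thus near those of all genes. Against Neg1 5 rose and 3 fell, where 14.2% of all genes rose and 16.9% fell. Against Neg2 4 rose and 2 fell, where 14.4% rose and 16.8% fell. The SUMO ligase PIAS1 rose (0.39 ± 0.07, adjusted p = 9.45e-05), as did the deubiquitinase USP5 (0.23 ± 0.06, adjusted p = 0.00506). USP2, which removes ubiquitin from MDM2, fell by 0.63 (SE 0.15, adjusted p = 0.00190), and the ligase TRIM24 by 0.34 (SE 0.09, adjusted p = 0.00281). TRIM24 did not pass against Neg1 (-0.20, adjusted p = 0.126) or Neg2 (-0.20, adjusted p = 0.118) at 4 h. At 100 nM for 2 h USP2 was lower by more (log2 -1.34, adjusted p = 1.16e-07, against the mean of Neg1 and Neg2).

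Of 17 cofactors and modifying enzymes 16 were tested, and 3 rose and 10 fell at 30 nM for 4 h against DMSO (median -0.32), where 17.5% of all genes rose and 19.3% fell. Against Neg1 and against Neg2 3 rose and 7 fell, with smaller medians of -0.18 and -0.14. Of all genes 14.2% rose and 16.9% fell against Neg1, and 14.4% rose and 16.8% fell against Neg2. The nuclear body genes DAXX (0.33 ± 0.05, adjusted p = 2.13e-05) and PML (0.31 ± 0.09, adjusted p = 0.00568) rose. PPP1R13B, which encodes ASPP1, a p53 partner, had 11.9 ± 1.86 CPM at 30 nM for 4 h and 23.5 ± 1.39 CPM with DMSO (-0.98 ± 0.11, adjusted p = 1.11e-07). PRMT5, an arginine methyltransferase that modifies p53, had 72.7 ± 3.47 CPM and 121 ± 5.66 CPM (-0.74 ± 0.05, adjusted p = 6.72e-11). Against the mean of Neg1 and Neg2 at 2 h, PML was lower. Its log2 fold change there was -0.19 at 30 nM (adjusted p = 0.04855) and -0.33 at 100 nM (adjusted p = 0.00208). DAXX passed at neither of these doses.

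A list of 13 genes of MDM2-binding proteins was mostly ribosomal or nucleolar, with YY1, NUMB and MTBP beside these. Of the 13, 8 rose and 2 fell at 4 h against DMSO (median 0.18), where 17.5% of all genes rose and 19.3% fell. YY1 and MTBP were among those that rose. Against Neg1 7 rose and 2 fell (median 0.19), where 14.2% of all genes rose and 16.9% fell. Against Neg2 3 rose and 3 fell (median 0.12), where 14.4% rose and 16.8% fell. At 30 nM for 2 h 11 rose and 1 fell against the mean of Neg1 and Neg2 (median 0.26), where 19.1% of all genes rose and 18.0% fell. MTBP, an MDM2-binding protein, rose at 4 h (0.46 ± 0.10, adjusted p = 3.74e-04), as did RPS14 (0.28 ± 0.07, adjusted p = 0.00141), which did not pass against Neg2 (0.16, adjusted p = 0.0990). The nucleolar genes GNL3 and NCL fell by 0.35 (SE 0.06, adjusted p = 2.12e-05) and 0.25 (SE 0.04, adjusted p = 8.78e-05). Against the mean of Neg1 and Neg2 at 2 h, NCL was higher. Its log2 fold change there was 0.10 at 30 nM (adjusted p = 0.0488) and 0.17 at 100 nM (adjusted p = 0.00184). GNL3 was lower at both doses.

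Over the 9 group means, the pattern of MDM2 was most like those of C2orf49, POLH and BCL2L11 (Pearson r of 0.986, 0.982 and 0.981 among 9427 protein-coding genes). POLH encodes a translesion DNA polymerase and BCL2L11 the cell death protein BIM. PPM1D was most like ELMO2, CSNK1G1 and SLC30A1 (0.988, 0.987 and 0.985), MDM4 like CRCP, LEPROT and ZXDC (0.980, 0.976 and 0.970), and CDKN2AIP like NGDN, E2F8 and NEPRO (0.986, 0.983 and 0.981). USP7 was most like CLTC, CUL3 and BOD1L1 (0.966, 0.966 and 0.959), and TP73 like KCNH2, KATNAL1 and NAA25 (0.943, 0.939 and 0.930). None are given for HIPK2, whose 0 to 11 counts per library are too few for a pattern. These are the closest of all genes compared, over 9 means that share libraries, and describe likeness alone.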

How the data were processed

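Poly(A) RNA of SUDHL5 cells was sequenced in pairs in 23 libraries. The deposited tables give an estimated count and a TPM value per transcript, made by the authors with kallisto after cutadapt, and the submitters' processing notes also name FastQC and DESeq2. Tool versions, the transcripts quantified and strandedness were not given in the sources used. Names, exons and exon sequences came from GENCODE 29 and promoters from RefSeq (GRCh38.p14); 205964 of 227912 transcripts matched, and the others held 1.16 to 1.28% of counts. Of 36 named transcripts, 29 had the same length in the deposited tables and in GENCODE 29.

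Estimated counts were summed per gene, rounded, filtered with filterByExpr (17743 genes), TMM-normalized and fitted in 1 edgeR 4.0.16 quasi-likelihood model over all 9 groups (R 4.3.3, 14 residual degrees of freedom), with Benjamini-Hochberg adjustment over all genes and calls at an adjusted p under 0.05. Intervals are 95%. Transcripts were fitted likewise, and usage was tested with edgeR's diffSpliceDGE over 64962 transcripts. The fits were also run on simulated counts with known changes, few changed features and the same spread for all. These data differ from that in the share of genes changed and in the split of reads among transcripts. That run therefore cannot vouch for the transcript and usage tests here. Alternatives were RLE normalization, no filter, length-scaled counts, a replicate block, only the groups compared, leaving out libraries, and DESeq2 1.42.0; limma 3.58.1 was loaded by edgeR. Depth was 17396484 to 26373153 estimated counts per library, and the coefficient of biological variation was 0.099. Named transcripts were those with 5% or more of their gene's TPM in a group. Named list genes were the 2 most raised and 2 most lowered among those called at 4 h against DMSO. Pattern-like genes were the 3 protein-coding genes, at a mean log2 CPM of 2 or more, with the highest Pearson r over group means. Members and gene lists were chosen with earlier results of these data known.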

Additional observations from a re-analysis of the deposited data

Results flagged for a closer look

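MDM2 at 30 nM for 2 h had 1 library far from the other 3, at 256.7 CPM in replicate 3, against 230.9 to 234.7 CPM in the others. Of 7 gene values tested in this group of 4, it was the one past Dixon's critical value of 0.829. Chance flags about 1 group in 20 for each value tested, so 1 flag among 7 is not unusual. The library lay within the range of the Neg1 and Neg2 libraries of 2 h (229.1 to 262.5 CPM).

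The 30 nM effect over the mean of Neg1 and Neg2 differed between 4 h and 2 h for 3 members by the test of the difference itself (edgeR). The difference on the log2 scale was 0.78 for MDM2, 0.68 for PPM1D and 0.42 for CDKN2AIP.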

How the results depend on the processing

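MDM2 and PPM1D kept their calls at 4 h, and in the difference between 4 h and 2 h, under all 30 alternatives. MDM4 changed sign with length-scaled counts: 0.51 against Neg1 and 0.62 against Neg2 at 30 nM for 4 h, and, at 2 h, 0.21 against Neg1, 0.11 against Neg2, 0.16 against their mean, and 0.067 at 100 nM against that mean. It also turned positive where neither value passed, at 4 h against DMSO (0.37 in place of -0.11) and at 10 nM for 2 h (0.17 in place of -0.23); the cause was not tested. Length-scaled counts also left 1 called member in place of 3 at 30 nM for 2 h against Neg1, and 0 in place of 2 between 100 and 30 nM. Without replicate 1 at 100 nM and replicate 1 of Neg2 at 2 h together, 5 members were called in place of 3 against Neg1 at 4 h, 0 in place of 2 at 30 nM for 2 h against Neg2, and 1 in place of 0 at 10 nM. At 10 nM DESeq2 also called 1. With no filter, 3 member transcripts passed in place of 5 at 4 h against the mean of Neg1 and Neg2, and usage changed for 2 in place of 4 at 30 nM for 2 h.

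Leaving out 1 library at a time gave 2 to 2 called members at 4 h against DMSO, 2 to 4 against Neg1 and 2 to 3 against Neg2. At 2 h it gave 0 to 3 at 30 nM against Neg1, 0 to 3 against Neg2, and against their mean 0 to 1 at 10 nM, 2 to 3 at 30 nM and 3 to 3 at 100 nM. It gave 0 to 0 between 30 and 10 nM, 2 to 2 between 100 and 30 nM, 2 to 3 between the times at 30 nM, 3 to 3 for the difference of the effect, and 0 to 0 in each comparison among Neg1, Neg2 and DMSO. Called transcripts ranged over 2 to 5 at 4 h against DMSO, 3 to 7 against the mean of Neg1 and Neg2, 1 to 5 at 30 nM for 2 h and 3 to 7 at 100 nM, and changed usage over 0 to 3, 0 to 3, 1 to 4 and 1 to 3 in that order.

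Deviations of same-numbered replicates from their group means had a mean correlation of 0.0139 over 78 pairs, 11 of them over 0.1. Replicates with other numbers had a mean of -0.007 over 155 pairs, 25 of them over 0.1. A mean near 0 cannot exclude that the numbers pair some samples, and the labels do not say. With the replicate block 1 member was called in place of 0 at 10 nM (MDM4, -0.22, adjusted p = 0.0266, edgeR). The block also called MDM4 at 30 nM for 4 h against Neg1 (-0.25, adjusted p = 0.0112) and PPM1D at 30 nM for 2 h against Neg2 (0.23, adjusted p = 0.0480) and against the mean of Neg1 and Neg2 (0.21, adjusted p = 0.0296). It removed the CDKN2AIP call at 4 h against 2 h (0.20, adjusted p = 0.116), and changed no other call of a member gene. Over all genes, length-scaled counts called 3380 genes in place of 5512 at 4 h against Neg1 and 607 in place of 2126 for the difference between times. Depth limits HIPK2, at 11 estimated counts or fewer, and transcripts such as USP7-213.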
